A study of Homo sapiens with 15 samples.

Results

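The genes described here are the enzymes of the cholesterol pathway and the genes that sense sterols and control it. They are 28 rows, found by gene symbol, of the 25503 rows of a table of expression values from AsPC-1 and Capan-1 cells, 2 established lines of human pancreatic ductal adenocarcinoma. By role they are 8 genes of the mevalonate arm, 11 of the sterol arm, 5 of SREBP control and 4 of sterol transport and other sterol-regulated functions. The study knocked down B4GALT5, a Golgi galactosyltransferase that makes lactosylceramide, or B3GNT3, an N-acetylglucosaminyltransferase that extends O-glycans, each with an siRNA. RNA was sequenced from 15 libraries in 5 groups of 3. These were AsPC-1 with an siRNA against B4GALT5 (siB4GALT5), AsPC-1 with an siRNA against B3GNT3 (siB3GNT3), AsPC-1 with a control siRNA (siNC), Capan-1 with siB3GNT3, and Capan-1 with siNC. All groups carried an siRNA, no label gives the time after transfection, and none ties the 3 libraries of a group to independent cultures. The p-values therefore reflect only the spread between these libraries, which may be technical.

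Cholesterol is built from acetyl-CoA in the cytosol and endoplasmic reticulum. The mevalonate arm makes farnesyl diphosphate, which also feeds protein prenylation, dolichol and ubiquinone, and the sterol arm turns it into squalene, lanosterol and cholesterol. The transcription factor SREBP-2, from SREBF2, and to a lesser degree SREBP-1, from SREBF1, drive these genes. When membrane sterol is low, SCAP escorts the SREBP precursor to the Golgi for cleavage, and when sterol is high, INSIG1 and INSIG2 hold SCAP back in the endoplasmic reticulum. A different sterol sensor, the nuclear receptor LXR, raises genes such as MYLIP, whose product degrades lipoprotein receptors.

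Promoters of 5 of these genes are printed because STARD4, LSS and MSMO1 were among the largest falls in AsPC-1, MVD had the largest fall in Capan-1, and SREBF2 encodes the main activator of the pathway. SREBPs bind sterol response elements beside factors such as NF-Y, which binds the CCAAT box. Sequences are from RefSeq on build GRCh38.p14, 250 bases before to 50 bases after the start, 5' to 3' on the gene's strand. Their positions are chr5:111512486-111512785 (minus strand) for STARD4, chr21:46228725-46229024 (minus strand) for LSS and chr4:165327419-165327718 (plus strand) for MSMO1. MVD lies at chr16:88663042-88663341 (minus strand) and SREBF2 at chr22:41832855-41833154 (plus strand). Capitals mark a CCAAT box on either strand (CCAAT or its complement ATTGG), the sterol response element letters TCACNCCAC on either strand, and the E-box CACGTG.
STARD4: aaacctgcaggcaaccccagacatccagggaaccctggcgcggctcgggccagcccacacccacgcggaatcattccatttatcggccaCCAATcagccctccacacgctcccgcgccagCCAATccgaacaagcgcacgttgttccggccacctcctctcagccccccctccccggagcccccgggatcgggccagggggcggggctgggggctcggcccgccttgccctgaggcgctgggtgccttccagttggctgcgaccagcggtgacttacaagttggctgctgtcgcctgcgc
LSS: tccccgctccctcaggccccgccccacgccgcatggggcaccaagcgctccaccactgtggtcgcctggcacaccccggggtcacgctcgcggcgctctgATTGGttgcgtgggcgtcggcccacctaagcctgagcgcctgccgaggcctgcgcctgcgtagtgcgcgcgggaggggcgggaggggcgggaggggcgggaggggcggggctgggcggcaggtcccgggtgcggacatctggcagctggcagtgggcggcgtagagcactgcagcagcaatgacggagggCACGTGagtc
MSMO1: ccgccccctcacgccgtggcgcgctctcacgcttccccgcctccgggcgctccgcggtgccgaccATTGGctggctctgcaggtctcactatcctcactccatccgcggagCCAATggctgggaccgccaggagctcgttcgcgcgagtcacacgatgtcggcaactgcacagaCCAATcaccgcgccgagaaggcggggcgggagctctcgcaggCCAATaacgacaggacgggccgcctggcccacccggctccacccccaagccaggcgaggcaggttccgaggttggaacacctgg
MVD: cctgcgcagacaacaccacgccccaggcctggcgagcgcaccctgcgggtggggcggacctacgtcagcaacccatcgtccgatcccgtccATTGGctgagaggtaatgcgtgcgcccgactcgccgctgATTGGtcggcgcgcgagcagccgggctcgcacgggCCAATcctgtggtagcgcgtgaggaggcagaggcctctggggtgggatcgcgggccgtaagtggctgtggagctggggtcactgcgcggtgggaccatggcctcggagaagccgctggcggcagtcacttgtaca
SREBF2: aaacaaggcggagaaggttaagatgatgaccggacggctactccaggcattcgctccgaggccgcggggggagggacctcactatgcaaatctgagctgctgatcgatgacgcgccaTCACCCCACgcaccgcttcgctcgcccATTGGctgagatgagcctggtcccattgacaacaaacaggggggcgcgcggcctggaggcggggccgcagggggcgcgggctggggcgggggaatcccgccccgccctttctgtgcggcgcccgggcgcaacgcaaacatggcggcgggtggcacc
The CCAAT box occurred 4 times in the MSMO1 window, 3 times in that of MVD, 2 times in that of STARD4 and 1 time in each of the others. No motif overlapped another of a different kind. Of the 28 genes 25 matched the RefSeq table, and ACAT2, FDFT1 and SQLE were not matched. A CCAAT box was present in the windows of 18 of these 25 genes and of 14 of the 16 matched synthesis genes, against 39.7% of all 27305 genes and 34.6% of all 35116 promoter windows. TCACNCCAC was present in 1 of the 25, SREBF2, against 1.39% of genes and 1.13% of windows. CACGTG was present in 4 of the 25, against 8.77% of genes and 7.26% of windows. These are descriptions of letters in a short window, and a window without a match says nothing of a factor's binding elsewhere.

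Expression values were FPKM (fragments per kilobase of transcript, scaled to the library's total), and read depth is unknown. The smallest values gave relative depths of 0.949 to 1.03 times that of AsPC-1 siNC replicate 1. B4GALT5 was 8.03 to 8.70 FPKM in the siB4GALT5 libraries, against 35.5 to 38.7 FPKM in AsPC-1 siNC. B3GNT3 was 1.32 to 1.84 FPKM in Capan-1 siB3GNT3, against 13.2 to 13.7 FPKM in Capan-1 siNC. AsPC-1 siB3GNT3 replicates 1 and 2 had 2.53 and 2.504 FPKM of B3GNT3, against 22.5 to 23.8 FPKM in siNC. The library labelled AsPC-1 siB3GNT3 replicate 3 had 24.2 FPKM. That library was set apart from all tests unless it is said to be included. Of 5 epithelial markers 4 reached 1 FPKM in AsPC-1, where CDH1 did not, and 5 of 5 did in Capan-1. In AsPC-1, 1 of 5 fibroblast markers (LUM), 1 of 5 leukocyte markers (CD68) and none of 4 endothelial markers reached 1 FPKM, and CD3E was at 0 in every library. There the epithelial list summed to 1932 to 1948 FPKM with siB4GALT5 and 1640 to 2051 FPKM with siB3GNT3, against 2022 to 2077 FPKM with siNC. The leukocyte list summed to 48.5 to 51.5 FPKM with siB4GALT5 and 43.1 to 52.4 FPKM with siB3GNT3, against 38.8 to 40.6 FPKM with siNC. The fibroblast list summed to 70.1 to 91.1 FPKM and 79.5 to 86.5 FPKM, against 80.3 to 92.3 FPKM. In these sums the siB3GNT3 ranges include the library labelled replicate 3. The mRNAs of the mitochondrial genome took 18.1% to 19.5% of FPKM with siB4GALT5 and 19.7% to 20.1% in siB3GNT3 replicates 1 and 2, against 23.8% to 24.8% in AsPC-1 siNC. In Capan-1 they were 13.6% to 14.4% with siB3GNT3 and 14.3% to 14.8% with siNC. The part of these shifts in the results below was not tested.

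In AsPC-1, both knockdowns were accompanied by lower mRNA of most cholesterol synthesis enzymes. The FPKM of the 19 synthesis genes summed to 298, 303 and 321 with siB4GALT5 and to 334 and 310 in siB3GNT3 replicates 1 and 2, against 452, 444 and 453 with siNC. All 5 knockdown libraries lay below all 3 controls. In Capan-1 the sums were 494, 532 and 587 with siB3GNT3, against 588, 572 and 582 with siNC, and replicate 3 lay within the range of the controls. The library labelled AsPC-1 siB3GNT3 replicate 3 had a sum of 439.

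**Figure D1:**
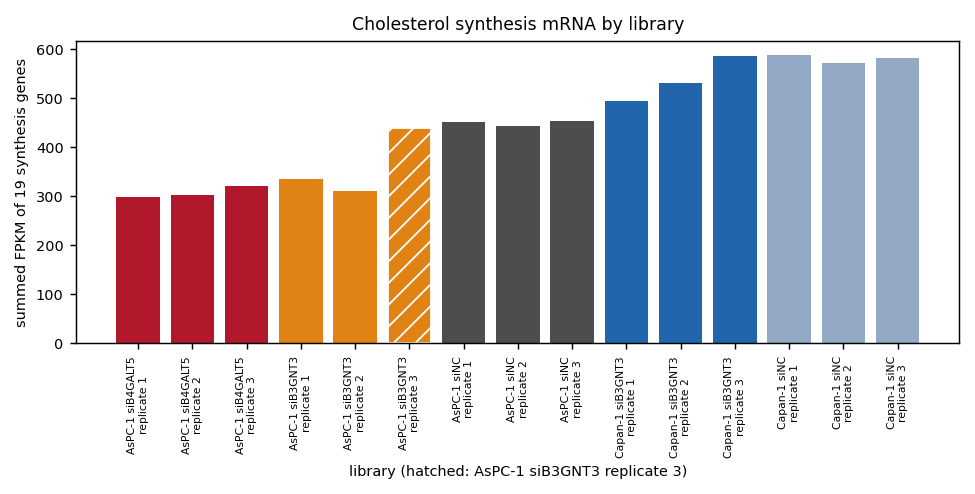
Summed FPKM of the 19 cholesterol synthesis genes, 1 bar per library, with the library labelled AsPC-1 siB3GNT3 replicate 3 hatched. The siB4GALT5 bars (298 to 321) and siB3GNT3 replicates 1 and 2 (334 and 310) are below every AsPC-1 siNC bar (444 to 453), while Capan-1 siB3GNT3 spans 494 to 587 beside siNC at 572 to 588.

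With siB4GALT5 in AsPC-1, 18 of the 28 genes fell and 2 rose at an adjusted p under 0.05 in limma's moderated test on log2(FPKM + 1), with p-values adjusted over all genes tested. All 28 passed the filter on low values. The background was high, since 23.0% of the 10775 genes tested were called lower and 35.2% higher. The median log2 fold change of the 28 genes was -0.32, against 0.06 over all genes tested. Among the 19 synthesis genes 15 fell, none rose, and the median was -0.56. Scaled to a common FPKM sum, 13 of the 28 were called lower and 3 higher, and of the synthesis genes 11 lower and 1 higher, against 17.5% lower and 42.5% higher of all genes on that scale, with HMGCS1, MVK, PMVK, SC5D and INSIG2 no longer called and GGPS1 higher by 0.31. With the doubted library kept in the fit of spread, 13 fell and 2 rose, against 15.1% and 24.1% of all genes.

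ACAT2, the cytosolic thiolase that opens the pathway, fell furthest. Its level was 5.05, 4.55 and 5.01 FPKM with siB4GALT5, against 14.9, 13.0 and 11.95 FPKM with siNC. The groups were far apart, and ACAT2 fell by 1.28 on the log2 scale (SE 0.09, adjusted p = 3.94e-06). Farther along the mevalonate arm, the synthases and the isomerase that assemble the isoprene chain moved less. FDPS, which makes farnesyl diphosphate and was the most abundant of the 28 genes in AsPC-1, was 57.4, 59.6 and 65.4 FPKM, against 90.1, 92.1 and 96.0 FPKM with siNC (log2 fold change -0.60, adjusted p = 4.29e-05). IDI1, which isomerises isopentenyl diphosphate, was 7.39, 6.50 and 4.93 FPKM against 9.92, 9.37 and 10.5 FPKM with siNC, also a fall by 0.60. Groups did not overlap for either gene.

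The early enzymes HMGCS1, MVK and PMVK passed the threshold by little. HMGCS1, HMG-CoA synthase, had a log2 fold change of -0.36 (adjusted p = 0.0272). The call was lost without siB4GALT5 replicate 1 or 2 or siNC replicate 1 or 3, with adjusted p of 0.0774 to 0.088. MVK, mevalonate kinase, fell by 0.21 (adjusted p = 0.0187), lost without siNC replicate 1 (0.0651) or 2 (0.0582). PMVK, phosphomevalonate kinase, was 17.5, 19.4 and 29.3 FPKM with siB4GALT5, against 29.3, 28.8 and 31.3 FPKM with siNC. Replicate 3 lay within the control range, and the log2 fold change of -0.45 (adjusted p = 0.0418) was no longer called without siB4GALT5 replicate 1 or 2 or any 1 siNC replicate (0.078 to 0.145). MVD, which decarboxylates mevalonate diphosphate, was not called (-0.15, adjusted p = 0.168). GGPS1, which lengthens farnesyl to geranylgeranyl diphosphate and so leads away from sterols, was not called either (0.23, adjusted p = 0.0628), although without siB4GALT5 replicate 3 it was higher by 0.34 (adjusted p = 0.00202).

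In the sterol arm 9 of 11 genes fell with siB4GALT5 and none rose. LSS, lanosterol synthase, which closes the sterol rings, was 7.67, 7.58 and 8.50 FPKM, against 18.1, 18.3 and 18.4 FPKM with siNC. This was the largest fall of the arm and the smallest adjusted p of the 28 genes (log2 fold change -1.11, SE 0.06, adjusted p = 9.49e-07). MSMO1, which removes methyl groups from lanosterol derivatives, was 13.4, 12.7 and 15.4 FPKM against 30.3, 25.7 and 27.3 FPKM with siNC. Every knockdown value was below every control (log2 fold change -0.96, adjusted p = 1.24e-05).

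DHCR7, which carries out a last step to cholesterol, fell by 0.71 on the log2 scale (adjusted p = 7.01e-06). It was 25.8, 26.6 and 25.4 FPKM with siB4GALT5, against 45.1, 42.5 and 41.4 FPKM with siNC. FDFT1, squalene synthase, fell by 0.68, HSD17B7, a sterol ketoreductase, by 0.67, and EBP, a sterol isomerase, by 0.60. HSD17B7 was only 3.01 to 3.56 FPKM, against 5.54 to 6.29 FPKM with siNC, and at such levels the added 1 FPKM damps the change. SQLE, squalene epoxidase, fell by 0.56, and NSDHL, which acts in the same demethylation steps as MSMO1, by 0.53. SC5D, a desaturase, fell by only 0.22 (adjusted p = 0.0208), and this call was lost without siB4GALT5 replicate 1 (0.0764) or siNC replicate 1 (0.0598) or 3 (0.0772). CYP51A1, which demethylates lanosterol, had a log2 fold change of 0.03 (adjusted p = 0.654), and TM7SF2, a sterol reductase, one of 0.16 (adjusted p = 0.213), and neither was called. HSD17B7, FDPS and CYP51A1 have pseudogenes with which reads could have been shared, so their values are less certain.

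**Figure D2:**
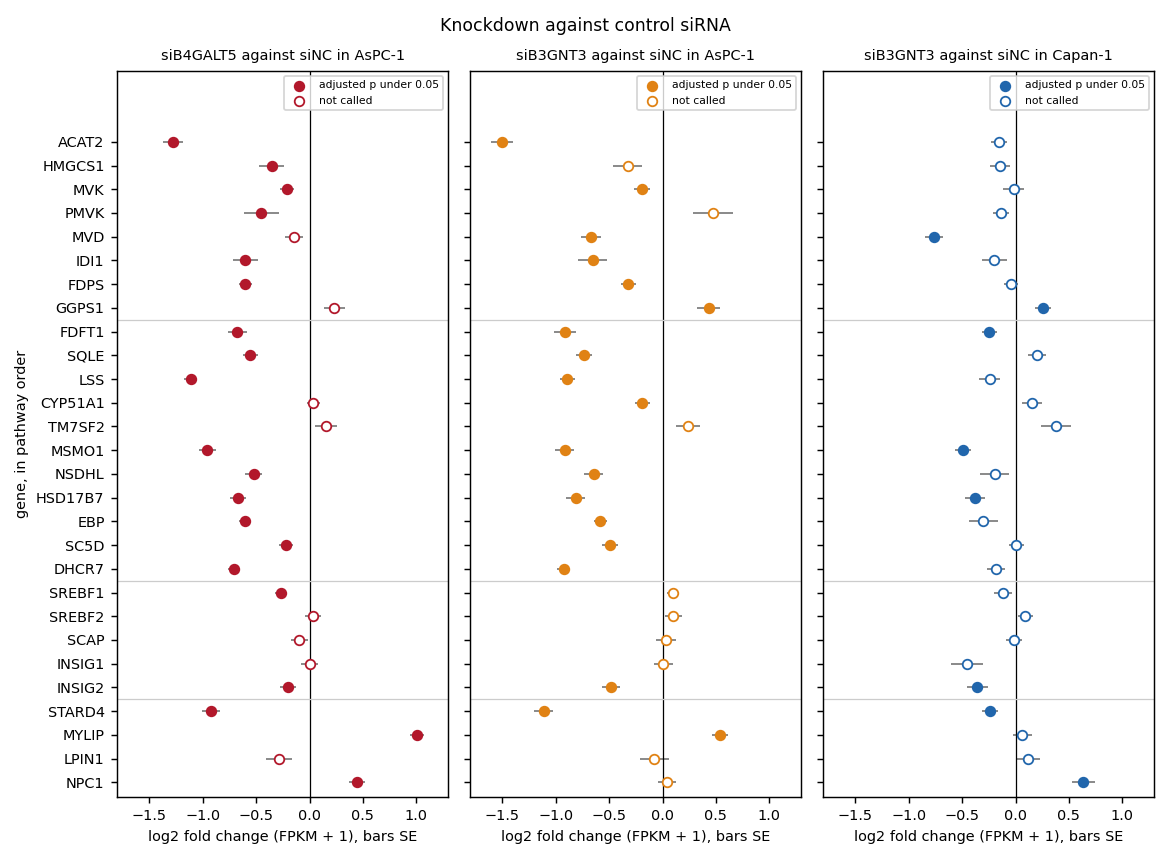
Log2 fold change of each of the 28 genes on log2(FPKM + 1), in pathway order from top to bottom, for siB4GALT5 and siB3GNT3 (replicates 1 and 2) against siNC in AsPC-1 and siB3GNT3 against siNC in Capan-1. Filled points had an adjusted p under 0.05, bars are standard errors, and grey lines part the mevalonate arm, the sterol arm, SREBP control and the last group; ACAT2 is the lowest point in both AsPC-1 panels (-1.28 and -1.50) and MVD the lowest in Capan-1 (-0.76).

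The genes that control the pathway moved little with siB4GALT5. SREBF2 was 16.5, 17.4 and 19.7 FPKM, against 18.5, 17.1 and 16.7 FPKM with siNC, and the groups overlapped (log2 fold change 0.03, adjusted p = 0.731). SCAP (-0.10, adjusted p = 0.341) was not called. INSIG1 was 15.3, 17.5 and 19.6 FPKM against 17.2, 17.3 and 17.7 FPKM with siNC, a log2 fold change of -0.00 (adjusted p = 0.996). INSIG1 is a known target of SREBP, as are the synthesis genes. Its level overlapped that of the controls, and SREBP activity was not tested. SREBF1 was 20.6, 19.5 and 20.9 FPKM against 24.5, 24.6 and 25.0 FPKM with siNC. All 3 were below the controls, a fall by 0.27 (adjusted p = 0.00164). INSIG2 was lower by 0.21 (adjusted p = 0.0373), a call kept only without siB4GALT5 replicate 2, since leaving out any other library gave an adjusted p of 0.0528 to 0.111.

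Among transport genes, STARD4, which carries cholesterol between membranes, was 1.81, 1.47 and 1.56 FPKM with siB4GALT5, against 4.35, 3.81 and 3.71 FPKM with siNC. It fell by 0.93 (adjusted p = 1.63e-05), although levels this low are damped by the added 1 FPKM, and reads of the antisense gene STARD4-AS1 cannot be told apart from its own because no source used here states strand. MYLIP went the other way. It was 9.38, 8.23 and 8.66 FPKM against 3.69, 3.83 and 4.01 FPKM with siNC, a rise of 1.01 on the log2 scale (SE 0.07, adjusted p = 2.6e-06). NPC1, which exports cholesterol from lysosomes, was 10.1, 11.2 and 11.7 FPKM against 8.34, 7.15 and 7.99 FPKM with siNC and rose by 0.44 (adjusted p = 0.000816). LPIN1, a phosphatidate phosphatase and SREBP target, was not called (-0.28, adjusted p = 0.0707), but was lower without siB4GALT5 replicate 1 (-0.36, adjusted p = 0.0427) or 2 (-0.37, adjusted p = 0.0366).

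With siB3GNT3 in AsPC-1, replicates 1 and 2 showed lower levels of 17 genes and higher levels of 2, against 20.4% and 32.5% of the 10775 genes tested. The median of the 28 genes was -0.40, against 0.07 over all genes, and among the 19 synthesis genes 15 fell, 1 rose and the median was -0.64. Scaled to a common FPKM sum, 15 of the 28 were called lower and 5 higher, and of the synthesis genes 13 lower and 3 higher, against 15.5% and 40.4% of all genes on that scale. Only 2 libraries stand on the siB3GNT3 side, so their spread is taken from the whole line. Both AsPC-1 comparisons use the same 3 siNC libraries, so their values are given here side by side and their likeness is not counted.

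ACAT2 was 4.37 and 3.69 FPKM in siB3GNT3 replicates 1 and 2, against 11.95 to 14.9 FPKM with siNC, and again had the largest fall (log2 fold change -1.50, SE 0.10, adjusted p = 4.87e-06). MVD, not called with siB4GALT5, was 5.14 and 5.80 FPKM against 9.0, 9.51 and 9.42 FPKM with siNC, a fall by 0.67 (adjusted p = 0.000346). IDI1 fell by 0.65. FDPS was 78.0 and 70.3 FPKM against 90.1 to 96.0 FPKM with siNC, a fall by 0.32 (adjusted p = 0.00402) that was not called without siB3GNT3 replicate 2 (-0.25, adjusted p = 0.052). GGPS1 rose by 0.43 (adjusted p = 0.00791), a call lost without siB3GNT3 replicate 1 (adjusted p = 0.0677). MVK, lower by 0.19 (adjusted p = 0.0468), was not called when any library but siB4GALT5 replicate 3 was left out (0.054 to 0.199). PMVK was 47.5 and 36.5 FPKM against 29.3, 28.8 and 31.3 FPKM with siNC. Both knockdown values were above the controls, but the log2 fold change of 0.47 had an adjusted p of 0.0589. It was called without siB4GALT5 replicate 1 (adjusted p = 0.0389) or 3 (0.00154), which enter only the estimate of spread. HMGCS1 (-0.33, adjusted p = 0.0619) was likewise called without siB4GALT5 replicate 2 (0.0306) or 3 (0.00262).

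In the sterol arm 10 of 11 genes fell with siB3GNT3. DHCR7 was 21.3 and 23.0 FPKM, against 45.1, 42.5 and 41.4 FPKM with siNC (log2 fold change -0.93, adjusted p = 4.62e-06). FDFT1 was 24.9 and 22.5 FPKM against 45.4, 45.2 and 45.9 FPKM with siNC (-0.91), and MSMO1 was 14.2 FPKM in both libraries against 25.7 to 30.3 FPKM with siNC (-0.92). Levels in these genes were near a 2-fold difference. LSS was 9.17 and 9.61 FPKM against 18.1 to 18.4 FPKM with siNC (-0.89). SQLE was 14.97 and 15.7 FPKM against 26.3, 26.2 and 26.0 FPKM with siNC (-0.74). HSD17B7 was 2.74 and 3.08 FPKM against 5.54 to 6.29 FPKM with siNC. Its fall by 0.81 is damped by the added 1 FPKM at such low levels, so its depth is understated beside that of the abundant genes. NSDHL fell by 0.64, EBP by 0.58 and SC5D by 0.49. CYP51A1 was lower by 0.19 (adjusted p = 0.041), and that call was lost without siB3GNT3 replicate 1 (0.0594) or 2 (0.249), siB4GALT5 replicate 1 (0.0502) or siNC replicate 1 (0.103), 2 (0.0599) or 3 (0.102). TM7SF2 was not called (0.24, adjusted p = 0.103) except without siNC replicate 3 (0.32, adjusted p = 0.0465).

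Of the control genes, only INSIG2 was called with siB3GNT3. It was 1.64 and 1.68 FPKM, against 2.74, 2.71 and 2.69 FPKM with siNC, a fall by 0.48 (adjusted p = 0.00105). At these low levels the added 1 FPKM damps the change. SREBF1 was 25.8 and 27.1 FPKM and SREBF2 18.3 and 19.2 FPKM, with log2 fold changes of 0.10 each and adjusted p of 0.187 and 0.325. SCAP (0.03, adjusted p = 0.769) and INSIG1 (0.01, adjusted p = 0.956) were not called. STARD4 was 1.28 and 1.29 FPKM against 3.71 to 4.35 FPKM with siNC and had the second deepest fall of the 28 genes (-1.11, adjusted p = 1.43e-05). MYLIP was 5.98 and 6.05 FPKM against 3.69 to 4.01 FPKM with siNC and rose by 0.54 (adjusted p = 0.000296). NPC1 (0.04, adjusted p = 0.694) and LPIN1 (-0.08, adjusted p = 0.641) were not called.

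**Figure D3:**
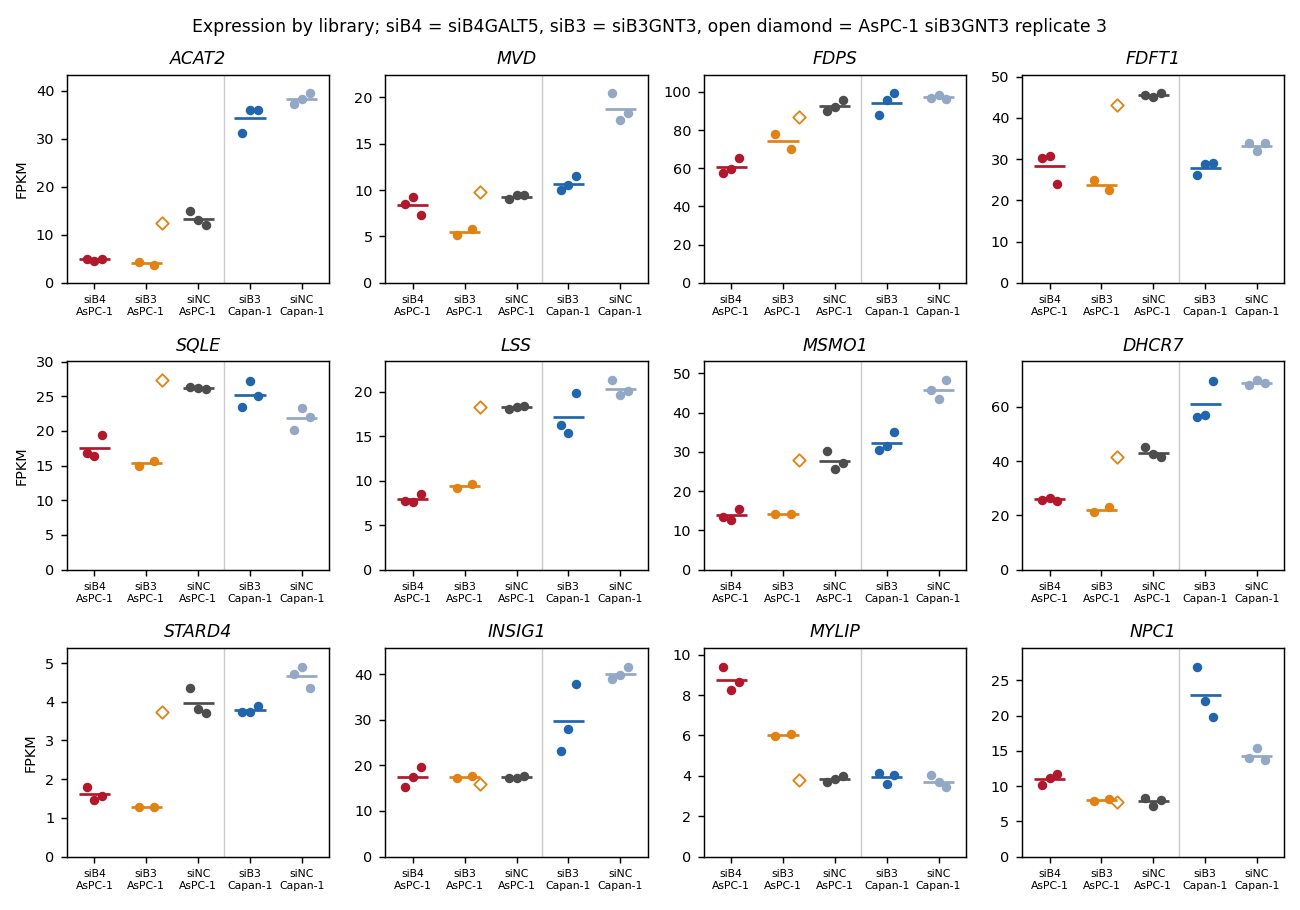
FPKM in each library for 12 of the genes, with siB4GALT5, siB3GNT3 and siNC of AsPC-1 left of the grey line and siB3GNT3 and siNC of Capan-1 right of it. Points are libraries, lines are means, and the open diamond is the library labelled AsPC-1 siB3GNT3 replicate 3, left out of the mean; its ACAT2 of 12.5 FPKM and LSS of 18.3 FPKM lie with siNC.

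The library labelled AsPC-1 siB3GNT3 replicate 3 lay with the control libraries for these genes as it did for its target. Across the 28 genes its root mean square log2 difference from each siNC library was 0.078 to 0.107, and pairs of siNC libraries lay apart by 0.083 to 0.120. It differed from siB3GNT3 replicates 1 and 2 by 0.642 and 0.631. Over all expressed genes it differed from each siNC library by 0.141 to 0.150, and from siB3GNT3 replicates 1 and 2 by 0.453 and 0.465. Of its 19 synthesis genes 4 were below all 3 controls and 4 above. Replicates 1 and 2 each had 16 below, and 3 and 2 above. The share of all genes beyond the controls was not computed, so these counts have no background beside them. With that library included as labelled, limma called 0 of the 28 genes and 0 of the 10804 genes tested, which is 0% in either direction. At an unadjusted p under 0.05 the same fit had 14 of the 28 genes and 3011 of all genes. The median of the 28 genes was then -0.28.

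Compared directly, the knockdowns in AsPC-1 differed in 11 of the 28 genes. With siB4GALT5 4 were lower and 7 higher than with siB3GNT3, against 17.4% and 17.8% of the 10775 genes tested, and the median difference was 0.02. The shares of all genes were not far from those of the 28, so the number of calls says little about the pathway. Among the synthesis genes PMVK had the largest difference (-0.92, SE 0.19, adjusted p = 0.00476), and it was lost without siB3GNT3 replicate 1 (-0.73, adjusted p = 0.057). FDPS was lower by 0.28 with siB4GALT5 (adjusted p = 0.0129) and LSS by 0.22 (adjusted p = 0.0288). MVD was higher by 0.53 with siB4GALT5 (adjusted p = 0.00266), and CYP51A1, SC5D and DHCR7 by 0.22 to 0.27. SREBF1 was lower by 0.36 with siB4GALT5 (adjusted p = 0.00125). MYLIP was higher by 0.47 (adjusted p = 0.00117), NPC1 by 0.40 (adjusted p = 0.00554) and INSIG2 by 0.28 (adjusted p = 0.0287). For ACAT2 (0.22, adjusted p = 0.113), MSMO1 (-0.04, adjusted p = 0.773) and STARD4 (0.19, adjusted p = 0.141) no difference was called, which does not show that the knockdowns act alike. The count was 4 without siB3GNT3 replicate 1, 7 without siB3GNT3 replicate 2 or siB4GALT5 replicate 2, and 10 to 12 without any other library. The calls of FDPS, LSS, CYP51A1, SC5D, DHCR7 and INSIG2 were each lost without at least 1 library, with adjusted p of 0.0506 to 0.205, and those of MVD, SREBF1, MYLIP and NPC1 were kept throughout.

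In Capan-1, siB3GNT3 was accompanied by a smaller and less even change. Of the 28 genes 6 fell and 2 rose, against 14.2% and 18.7% of the 11493 genes tested, shares not far from those of the 28 genes. The median was -0.14, against 0.02 over all genes. Among the 19 synthesis genes 4 fell and 1 rose, with a median of -0.16. Scaled to a common FPKM sum, 5 of the 28 were lower and 3 higher, and of the synthesis genes 4 lower and 2 higher, against 12.1% and 21.3% of all genes on that scale.

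MVD fell furthest in Capan-1. It was 9.96, 10.5 and 11.5 FPKM with siB3GNT3, against 20.4, 17.6 and 18.3 FPKM with siNC (log2 fold change -0.76, SE 0.08, adjusted p = 0.000613). MSMO1 was 30.5, 31.5 and 35.0 FPKM against 45.8, 43.5 and 48.2 FPKM with siNC (-0.49, adjusted p = 0.00246). NPC1 rose by 0.63 (adjusted p = 0.00422), with 26.9, 22.1 and 19.9 FPKM against 13.9, 15.4 and 13.7 FPKM with siNC. In these 3 genes the groups did not overlap, and the calls were kept with any 1 library left out.

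The other calls in Capan-1 were fragile. HSD17B7 fell by 0.38 (adjusted p = 0.0162), lost without siNC replicate 1 (0.0718) or 3 (0.0689) or siB3GNT3 replicate 2 (0.056). INSIG2 fell by 0.36 (adjusted p = 0.0255), lost without any 1 siNC replicate or siB3GNT3 replicate 1 (0.0588 to 0.102). FDFT1 fell by 0.24 (adjusted p = 0.0266), lost without the same libraries (0.0649 to 0.108). STARD4 fell by 0.24 (adjusted p = 0.0386), lost without any 1 siNC replicate or siB3GNT3 replicate 1 or 2 (0.0694 to 0.146). GGPS1 rose by 0.26 (adjusted p = 0.0278), lost without any 1 siNC replicate or siB3GNT3 replicate 2 (0.0506 to 0.12). ACAT2, the deepest fall in AsPC-1, was 31.2, 36.0 and 35.9 FPKM against 37.3, 38.3 and 39.4 FPKM with siNC, and its log2 fold change of -0.16 was not called (adjusted p = 0.14). SREBF1, SREBF2 and SCAP had log2 fold changes of -0.12, 0.09 and -0.01, none called.

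Replicate 3 of Capan-1 siB3GNT3 stood apart from replicates 1 and 2. Its B3GNT3, at 1.84 FPKM, was the highest of the group, against 1.32 and 1.67 FPKM in replicates 1 and 2 and 13.2 to 13.7 FPKM with siNC. Across the 28 genes it differed from the siNC libraries by a root mean square log2 difference of 0.257 to 0.289, against 0.289 to 0.410 for replicates 1 and 2. INSIG1 stood at 23.1 and 28.05 FPKM in replicates 1 and 2 and at 37.9 FPKM in replicate 3, against 39.0, 39.9 and 41.6 FPKM with siNC. DHCR7 was 56.3 and 57.2 FPKM in replicates 1 and 2 and 69.5 FPKM in replicate 3, against 68.3, 69.8 and 68.8 FPKM with siNC. DHCR7 thus had 2 libraries below the controls and 1 within their range, while INSIG1 had every library below them, replicate 3 by the least.

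Without that replicate, 14 of the 28 genes were lower and 5 higher in Capan-1, with 23.9% and 26.5% of 11338 genes called. The synthesis genes then had 11 lower, 3 higher and a median of -0.23. The largest of the added calls was INSIG1 (-0.64, adjusted p = 0.000184), which had -0.45 and an adjusted p of 0.051 with all 3 replicates. EBP (-0.46), NSDHL (-0.35), LSS (-0.35), IDI1 (-0.32), DHCR7 (-0.28), HMGCS1 (-0.23) and ACAT2 (-0.19) were also called lower, and CYP51A1 (0.25), LPIN1 (0.23) and TM7SF2 (0.20) higher. TM7SF2 was also called without siB3GNT3 replicate 2 (0.50, adjusted p = 0.0416). Leaving out any other library gave 3 to 6 calls, namely 3 without siNC replicate 1 or 3, 4 without siNC replicate 2, 5 without siB3GNT3 replicate 1 and 6 without siB3GNT3 replicate 2. Epithelial markers summed to 2980 to 3848 FPKM in Capan-1 siB3GNT3, against 4704 to 4932 FPKM in siNC. The fibroblast list went the other way, with 3 of 5 markers (COL1A1, LUM and PDGFRB) reaching 1 FPKM and a sum of 80.0 to 85.7 FPKM with siB3GNT3, against 57.4 to 63.2 FPKM with siNC. The leukocyte list summed to 172 to 213 FPKM with siB3GNT3 and 160 to 174 FPKM with siNC, with CD68 and LYZ as the markers that reached 1 FPKM. The part of these in the result was not tested.

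The depth of the response to siB3GNT3 was compared between the lines by the interaction of line and siRNA over 14 libraries. The response was lower in AsPC-1 than in Capan-1 for 12 of the 28 genes and higher for 2, against 13.8% and 19.0% of the 12236 genes tested. The median difference was -0.28, against 0.04 over all genes. In the sterol arm all 11 differences were below 0 and 8 were called. Among the 19 synthesis genes 16 had the lower log2 fold change in AsPC-1, 10 differences were called lower and 1 higher, and the median was -0.43. Across the 28 genes the responses of the lines had a Pearson r of 0.506 and a Spearman rho of 0.604, given as a description over genes that are not independent. Calls within a line depended on the fit. By limma over these 14 libraries, LSS (adjusted p = 0.0311), EBP (0.0435) and INSIG1 (0.0147) were also lower in Capan-1 and TM7SF2 (0.0373) higher. In AsPC-1 PMVK was then higher (0.0304), while MVK (0.0854) and CYP51A1 (0.106) were not called. Shares of all genes for these calls are not given here.

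ACAT2 had the largest difference, with a log2 fold change of -1.50 in AsPC-1 and -0.16 in Capan-1 (difference -1.35, SE 0.13, adjusted p = 8.57e-06). SQLE differed in sign. It was 14.97 and 15.7 FPKM with siB3GNT3 in AsPC-1, against 26.0 to 26.3 FPKM with siNC, but 23.4, 27.2 and 25.1 FPKM with siB3GNT3 in Capan-1, against 20.2, 23.3 and 22.0 FPKM with siNC. The difference was -0.94 (adjusted p = 5.57e-05), while the value of 0.20 in Capan-1 was not called on its own (adjusted p = 0.0913). STARD4 differed by -0.87, DHCR7 by -0.74, FDFT1 by -0.67 and LSS by -0.65. SC5D differed by -0.50 and NPC1 by -0.59, NPC1 with 0.04 in AsPC-1 and 0.63 in Capan-1. MYLIP differed by 0.47 (adjusted p = 0.00499), with 4.14, 3.57 and 4.04 FPKM in Capan-1 siB3GNT3 against 4.02, 3.67 and 3.43 FPKM in siNC, where the groups overlapped. These 9 differences were kept with any 1 library left out.

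The remaining 5 differences depended on single libraries. MSMO1 (-0.43, adjusted p = 0.0157) was lost without AsPC-1 siB3GNT3 replicate 1 (0.0515) or 2 (0.0532), and HSD17B7 (-0.43, adjusted p = 0.0176) without replicate 1 (0.0871). CYP51A1 (-0.34, adjusted p = 0.0441), FDPS (-0.28, adjusted p = 0.0397) and PMVK (0.60, adjusted p = 0.049) were each lost without most single libraries, with adjusted p of 0.0514 to 0.233. MVD, with falls by 0.67 and 0.76, had a difference of 0.09 (adjusted p = 0.632). Without Capan-1 siB3GNT3 replicate 3, 11 of the 28 genes remained lower in AsPC-1 and 2 higher, with FDPS and PMVK lost and INSIG1 (0.65, adjusted p = 0.00185) added. Without Capan-1 siB3GNT3 replicate 1, IDI1 (-0.59), NSDHL (-0.58) and EBP (-0.42) were added.

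**Figure D4:**
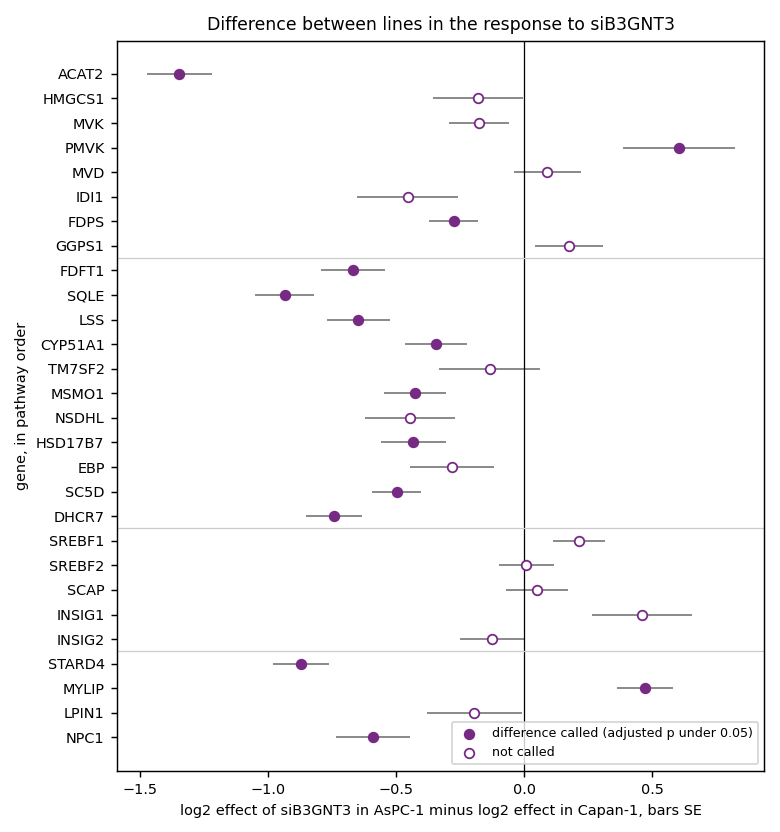
Difference between the lines in the log2 effect of siB3GNT3, AsPC-1 minus Capan-1, for the 28 genes in pathway order, with standard errors; filled points had an adjusted p under 0.05. Points left of 0 are genes with the lower log2 fold change in AsPC-1, led by ACAT2 (-1.35) and SQLE (-0.94), while MVD (0.09) lies near 0.

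The lines were also compared with the control siRNA, where most of all genes differed and the called share of these 28 was no higher. In AsPC-1 siNC 14 of the 28 genes were lower than in Capan-1 siNC and 5 were higher, against 43.6% and 34.5% of the 12236 genes tested. Line and any difference in processing between the lines cannot be told apart. The median was -0.21, against -0.09 over all genes. Scaling to a common FPKM sum moved the median of all genes to -0.23 and the 28 genes to 18 lower and 3 higher, against 50.7% and 28.1% of all genes. The synthesis genes had 13 lower and 1 higher on that scale, and 9 and 3 as deposited.

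TM7SF2 differed most, with 2.86, 3.04 and 3.69 FPKM in AsPC-1 siNC against 39.6, 36.3 and 36.9 FPKM in Capan-1 siNC (-3.20, SE 0.13, adjusted p = 2.61e-11). Both INSIG genes were lower in AsPC-1, INSIG2 at 2.74, 2.71 and 2.69 FPKM against 10.04, 10.3 and 11.1 FPKM (-1.63), and INSIG1 at 17.2, 17.3 and 17.7 FPKM against 39.0, 39.9 and 41.6 FPKM (-1.16). SREBF2 was lower by 0.72, and ACAT2, the gene with the deepest fall after knockdown in AsPC-1, was already lower by 1.47. IDI1 (-1.10), MVD (-0.94), NPC1 (-0.80), MSMO1 (-0.71), DHCR7 (-0.67) and SC5D (-0.61) were lower too. LPIN1 (0.79), FDFT1 (0.44), SCAP (0.37), SQLE (0.25) and CYP51A1 (0.24) were higher in AsPC-1. STARD4 (-0.19, adjusted p = 0.0265) was not called without AsPC-1 siNC replicate 2 (0.083) or 3 (0.102) or Capan-1 siNC replicate 1 (0.0652) or 2 (0.0953), and CYP51A1 not without Capan-1 siNC replicate 1 (0.0515).

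**Figure D5:**
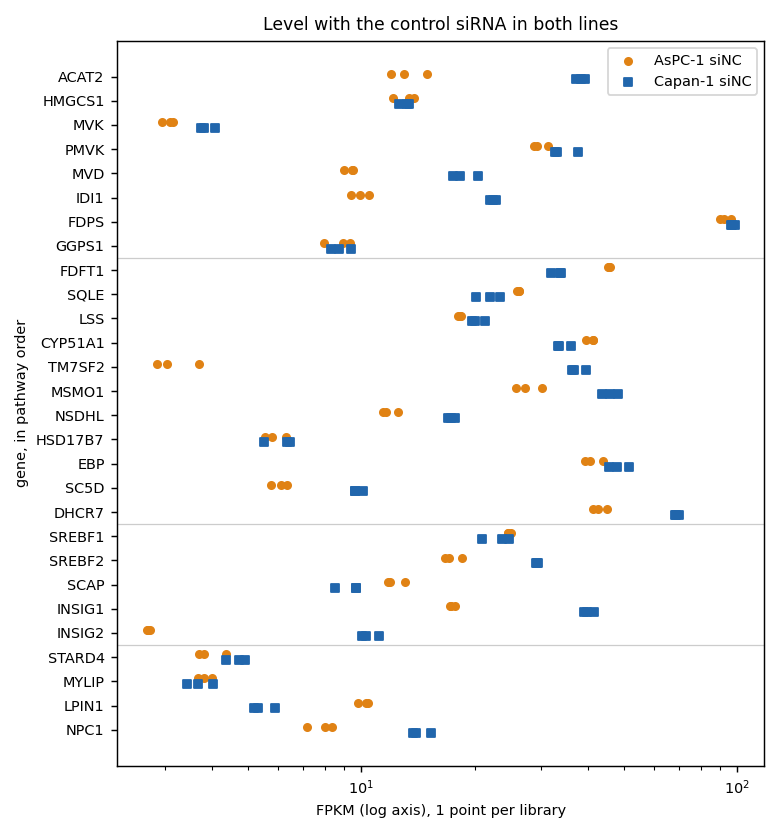
FPKM of the 28 genes with the control siRNA on a log axis, 3 points per line, AsPC-1 siNC as circles above Capan-1 siNC as squares. TM7SF2 has the widest gap (2.86 to 3.69 against 36.3 to 39.6 FPKM), and FDPS is the highest in both lines (90.1 to 96.0 and 96.1 to 98.5 FPKM).

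Genes next to the pathway were taken from lists chosen with earlier results known, and their counts are read beside the shares of all genes, which were 23.0% lower and 35.2% higher with siB4GALT5, 20.4% and 32.5% with siB3GNT3 in AsPC-1, and 14.2% and 18.7% in Capan-1. Fatty acid synthesis, driven by SREBP-1, had 8 of 9 genes lower and 1 higher with siB4GALT5, 7 lower and 1 higher with siB3GNT3 in AsPC-1, and 5 lower and none higher in Capan-1. SCD, the stearoyl-CoA desaturase, fell by 1.69 with siB4GALT5 (adjusted p = 1.34e-07) and by 1.21 with siB3GNT3 in AsPC-1. FADS2, a fatty acid desaturase, fell by 0.94, 1.04 and, in Capan-1, 0.82. The median of the list was -0.78, -0.63 and -0.36.

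Genes that process SREBP or take part in sterol-regulated degradation did not share a direction. Of 12, 2 were lower and 7 higher with siB4GALT5, 4 lower and 6 higher with siB3GNT3 in AsPC-1, and 3 lower and 1 higher in Capan-1. AUP1, an adaptor of endoplasmic reticulum degradation, rose by 0.87 with siB4GALT5 and by 0.71 with siB3GNT3 in AsPC-1. ERLIN1, a membrane scaffold of the same process, fell by 1.10 with siB3GNT3 in AsPC-1 and by 0.70 in Capan-1. It did not share this fall with siB4GALT5, where it was higher by 1.59 than with siB3GNT3 in AsPC-1. SPRING1, which helps to activate SREBP, fell by 0.86 in Capan-1 (adjusted p = 0.00135).

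Of the sterol export and LXR genes, 4 of 5 were tested. None fell and 2 rose with siB4GALT5, none fell and 3 rose with siB3GNT3 in AsPC-1, and 1 fell and 1 rose in Capan-1. These 4 genes are too few for the counts to be set apart from the shares of all genes, so the counts say little about the list. NR1H2, which encodes LXR beta, rose by 0.93 with siB4GALT5 and by 1.02 with siB3GNT3 in AsPC-1. Its response to siB3GNT3 was higher in AsPC-1 than in Capan-1 by 0.85. RXRA, of the same list, rose by 0.31 with siB3GNT3 in AsPC-1 but fell by 0.35 in Capan-1. ABCA1, a cholesterol exporter and LXR target, rose by 0.80, by 0.50 and, in Capan-1, by 0.37.

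Cholesterol transport and storage had 5 lower and 3 higher of 11 tested with siB4GALT5, 8 lower and 2 higher with siB3GNT3 in AsPC-1, and 3 lower and 1 higher of 12 in Capan-1. SCARB1, a lipoprotein receptor, fell by 0.63 with siB4GALT5 and by 0.78 with siB3GNT3 in AsPC-1, and SOAT1, which esterifies cholesterol, fell by 0.65 with siB4GALT5. OSBP, an oxysterol-binding sterol carrier, rose by 0.69 with siB3GNT3 in AsPC-1 and fell by 0.41 in Capan-1, and the responses differed by 1.10 (adjusted p = 8.8e-07). LRP8, another lipoprotein receptor, fell by 0.60, 0.74 and, in Capan-1, 0.39. Genes that use isoprenoids had 1 lower and 4 higher of 10 with siB4GALT5, 3 and 5 with siB3GNT3 in AsPC-1, and 2 and 1 in Capan-1. The counts with siB4GALT5 and in Capan-1 are close to the shares of all genes and say little about the list. ICMT, which methylates prenylated proteins, fell by 1.06 with siB3GNT3 in AsPC-1 (adjusted p = 0.000103). FNTA, a farnesyltransferase subunit, was higher by 0.68, 0.51 and, in Capan-1, 0.28. NUS1, a subunit of the enzyme that makes the dolichol precursor, rose by 0.32 and 0.49 in AsPC-1 but fell by 0.35 in Capan-1.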

How the data were processed

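The authors deposited 1 table of FPKM values, genes by 15 libraries, taken here as deposited. Per the submitters' processing notes, Bowtie2, RSEM 1.3.1 and DESeq2 1.4.5 were used with GRCh38, and no source used here gives the step each served. Groups came from the sample labels. Differences were tested with limma 3.58.1 (R 4.3.3) with an intensity trend on log2(FPKM + 1), which understates changes of low genes, for genes of at least 1 FPKM in at least 3 libraries of a fit. The fits held 8 AsPC-1 libraries, 6 Capan-1 libraries, or 14 of both lines, and p-values were adjusted by Benjamini-Hochberg over all genes tested. The library labelled AsPC-1 siB3GNT3 replicate 3 was set apart. Values are described for all 28 genes and, from each further list, for up to 3 called genes with the smallest p. The genes and lists were chosen with earlier results of these data known. Figures used Python 3.11.15 and matplotlib 3.10.9. Counts of reads were not used here.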

Additional observations from a re-analysis of the deposited data

Results flagged for a closer look

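The response to siB3GNT3 differed between the lines for 14 of the 28 genes, by limma's test of the interaction with Benjamini-Hochberg adjustment. It was lower in AsPC-1 for 12 and higher for 2, against 13.8% and 19.0% of the 12236 genes tested. The calls of MSMO1, HSD17B7, CYP51A1, FDPS and PMVK depended on single libraries. As the log2 effect in AsPC-1 minus that in Capan-1, the differences below 0 were -1.35 for ACAT2, -0.94 for SQLE, -0.87 for STARD4, -0.74 for DHCR7, -0.67 for FDFT1 and -0.65 for LSS. They were -0.59 for NPC1, -0.50 for SC5D, -0.43 for HSD17B7, -0.43 for MSMO1, -0.34 for CYP51A1 and -0.28 for FDPS. The differences above 0 were 0.60 for PMVK and 0.47 for MYLIP. With the library labelled AsPC-1 siB3GNT3 replicate 3 included, 1 of the 28 genes, NPC1, was called, and the cause was not tested. The share of all genes called in that fit is not given here.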

How the results depend on the processing

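Counts are of the 28 genes called, and the shares of all genes called moved with the setting as well. In Capan-1, 23.9% of all genes were lower and 26.5% higher without siB3GNT3 replicate 3, against 14.2% and 18.7% with it. For siB3GNT3 in AsPC-1 as labelled both shares were 0%, against 20.4% and 32.5%. The shares under most other settings are not given here, so these counts say little about the 28 genes alone. Keeping AsPC-1 siB3GNT3 replicate 3 as labelled gave 0 for siB3GNT3 in AsPC-1 (19 without it), 4 for siB4GALT5 against siB3GNT3 (11) and 1 for the difference between lines (14). In the second of these DHCR7 reversed to -0.0744 (adjusted p = 0.834, limma) from 0.22. Without a filter on low values the counts were 2 in Capan-1 (8) and 7 for siB4GALT5 against siB3GNT3, where fitting only the groups compared gave 6. Leaving out 1 library gave 15 to 20 for siB4GALT5 against siNC (20), 16 to 21 for siB3GNT3 in AsPC-1, 3 to 19 in Capan-1, 4 to 12 between the knockdowns, 10 to 15 for the difference between lines and 17 to 21 for siNC of both lines (19). The cause was not tested. Deviations of same-numbered libraries had 10 correlations of -0.128 to 0.0863, against -0.185 to 0.185 for 20 pairs of unlike number. This cannot show whether libraries were paired, because the replicate numbers of some differ from the numbers in their library names. The fits with a replicate block gave 19, 18, 6, 9, 13 and 19 calls in the order siB4GALT5, siB3GNT3 in AsPC-1, Capan-1, between knockdowns, between lines and siNC. Median-ratio scaling moved the split of all genes to 3044 higher and 3216 lower for siB4GALT5 (3794 and 2477 as deposited), 2730 and 2938 for siB3GNT3 in AsPC-1 (3504 and 2193) and 1890 and 2192 between lines (2319 and 1690), while a common FPKM sum gave 4562 and 1879, 4339 and 1668, and 2670 and 1505. The median of the 19 synthesis genes kept its sign under both scalings in all 6 comparisons. Of the values of single genes and counts under other processing settings, 1312 kept direction and call, 25 gained a call, 99 lost it and 1 reversed. Read depth is unknown, which limits what can be said of genes near 1 FPKM such as STARD4.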
